A study of Mus musculus with 6 samples.

Results

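Aminoacyl-tRNA synthetases are the enzymes that join each amino acid to its tRNA. Their genes were taken from the PRO-seq values of mouse muscle stem cells (MuSCs) by symbol: a capital letter for the amino acid followed by ars or ars2, together with *Eprs*, *Farsa*, *Farsb* and *Tarsl2*. The rule found 38 of the 14546 genes listed, and 37 of them are described, all among the 12451 genes tested. By the known place of the enzyme, 19 of the 37 serve the cytosol, 16 serve mitochondria, and 2 (*Gars* and *Kars*) serve both compartments from the same gene. The rule used no measured value.

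A synthetase recognises its amino acid and the matching tRNA, uses ATP to activate the amino acid and transfers it to the end of the tRNA, which then carries it to the ribosome. Mammalian cells translate with cytosolic ribosomes and with separate ribosomes inside mitochondria. For most amino acids the nucleus therefore holds a pair of synthetase genes, and the mitochondrial enzyme (suffix 2) is imported. Several cytosolic synthetases sit in a large multisynthetase complex, among them the fused glutamyl-prolyl enzyme encoded by *Eprs*. Many cytosolic synthetase genes are known targets of ATF4, a transcription factor that is induced when amino acids are short.

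PRO-seq maps engaged RNA polymerases in isolated nuclei, where they extend their transcripts with biotin-carrying nucleotides, so the values report ongoing transcription and not stored mRNA. The 3 control libraries (Ctrl) carry the genotype Pax7CreERT/Suv4-20h1WT, and the 3 mutant libraries (*Kmt5b* sKO) carry Pax7CreERT/Suv4-20h1KO. Both groups thus share the tamoxifen-inducible Cre under *Pax7*, which limits the deletion of *Kmt5b* (also called Suv4-20h1), the gene of an H4K20 methyltransferase, to *Pax7*-expressing cells. The mice were on a C57BL/6 background, received tamoxifen as young adults, and gave MuSCs that were purified with magnetic beads, cultured and still proliferating. The labels give no age at collection. The study calls the replicates biological, but the labels do not say whether they came from separate animals, and p-values measure the spread between these libraries. The comparison asks whether transcription of coding genes differs when *Kmt5b* is lost.

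Each gene has 2 values per library: reads in the TSS region (the first 400 nt of the listed transcript) in RPM, scaled to library total, and reads in the gene body (the rest of the transcript) in TPM, scaled to length and total. The listed genes held 926904 to 3246052 TSS reads and 7425433 to 16249797 gene body reads per library. Behind a single synthetase value lay 8 to 1336 TSS reads (median 149) and, leaving out *Lars2*, 31 to 5616 gene body reads (median 568). *Kmt5b* itself had 30.6, 35.4 and 38.5 TPM in Ctrl against 37.8, 35.0 and 42.6 TPM for *Kmt5b* sKO, which is no check of the labels because reads over the whole gene are summed and the deleted part is not listed apart. All 8 satellite cell and myoblast markers were listed, with a summed gene body signal of 1617 to 2326 TPM in Ctrl and 2094 to 2804 TPM in *Kmt5b* sKO, and none was at 0. Most of this sum came from *Myod1* and *Des*. The gene body log2 fold change (*Kmt5b* sKO over Ctrl) was above 0 for 4 of the 8 and below 0 for 4, with 0 called by the test used below. It ran from -0.41 for *Pax7* to 0.73 for *Des*, and that of *Pax7* was -0.66 without Ctrl replicate 3. Of the fibro-adipogenic markers 2 of 5 were listed (summed signal at most 8.62 TPM), of the endothelial markers 3 of 4 (at most 5.05 TPM), and of the leukocyte markers 1 of 4, *Cd68*, a lysosomal glycoprotein gene of macrophages, with 214 to 402 TPM in Ctrl and 319 to 326 TPM in *Kmt5b* sKO. The part of other cell types in the synthetase values was not tested. Marker sums also differed by genotype. The 6 cycling markers summed to 249 to 372 TPM in Ctrl and 180 to 204 TPM in *Kmt5b* sKO. The 7 mature fibre markers summed to 448 to 983 TPM in Ctrl and 1179 to 1623 TPM in *Kmt5b* sKO. Of these, *Myh4*, *Myh2* and *Pvalb* were at 0 in the TSS region of some library. In the gene body 3 of the 6 cycling markers, *Bub1*, *Cdk1* and *Top2a*, were called lower in *Kmt5b* sKO by the test used below, and none higher. The same test called 2.99% of all genes in either direction. *Ccnb1*, a large part of the cycling sum, had 76.9 to 93.2 TPM (gene body log2 fold change -0.02). By flow cytometry the paper found no significant change in G0/G1 or S phase and a slight increase in G2/M. Of the 7 fibre markers 4 were tested and 0 called, and most of their sum came from *Acta1*, the skeletal actin gene (338 to 1034 TPM). At the TSS 1 cycling marker, *Top2a*, was called lower, where 1.66% of all genes were called. All 4 fibre markers tested were higher at the TSS at an unadjusted limma p under 0.05 (11% of all genes), with 0 called. Without Ctrl replicate 3, 5 of the 6 cycling markers were called lower at the TSS, and 5 of 6 over the body. That run called 6.71% of all genes over the body, and its share at the TSS is not given here. The fibre markers *Acta1* and *Mb* were then called higher at the TSS, and 0 over the body. The part of these marker differences in the synthetase values was not tested. In such pooled cells, fewer cells of a kind and less transcription per cell cannot be told apart. One library stands apart for the synthetase genes, Ctrl replicate 3, and calls and medians that rest on it are given with and without it.

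Nascent transcription of the cytosolic synthetases was the higher of both classes in the gene body. The median cytosolic gene had 34.3, 34.1 and 44.9 TPM in Ctrl against 39.7, 34.6 and 34.3 TPM for *Kmt5b* sKO. The median mitochondrial gene had 15.4, 16.6 and 16.4 TPM in Ctrl against 16.1, 15.9 and 14.2 TPM for *Kmt5b* sKO, so the cytosolic median was 2.05 to 2.74 times the mitochondrial one depending on the library. For comparison, the median of all genes tested lay between 14.3 and 16.7 TPM.

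*Aars*, the alanyl-tRNA synthetase gene, had the highest gene body signal of the cytosolic class, with 97.3, 93.0 and 113 TPM in Ctrl against 98.5, 93.3 and 94.7 TPM for *Kmt5b* sKO. It stood clear of the next genes, since no other cytosolic member passed 88.2 TPM in any library. *Dars* (aspartyl, 54.4 to 88.2 TPM), *Yars* (tyrosyl, 55.9 to 71.8 TPM) and *Nars* (asparaginyl, 46.2 to 69.1 TPM) followed, and their ranges over the 6 libraries overlapped. The value of *Dars* comes from a short listed transcript with 4 exons, whose body covers 9.04% of the gene as annotated. *Sars* (seryl, 46.4 to 71.2 TPM), *Vars* (valyl, 41.9 to 68.8 TPM), *Eprs* (37.6 to 60.5 TPM), *Cars* (cysteinyl, 38.4 to 47.7 TPM) and *Iars* (isoleucyl, 36.9 to 44.9 TPM) formed a middle group in which neighbours in this order overlapped in range, and the shared gene *Gars* (glycyl) lay among them with 44.8 to 72.2 TPM.

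Next came *Mars* (methionyl, 30.5 to 39.7 TPM), *Lars* (leucyl, 23.9 to 45.4 TPM), *Rars* (arginyl, 28.3 to 39.5 TPM), *Tars* (threonyl, 24.8 to 37.2 TPM) and the 2 genes of the phenylalanyl enzyme, *Farsa* (25.9 to 34.1 TPM) and *Farsb* (20.3 to 26.4 TPM). These subunits assemble into the same enzyme, yet *Farsb* had the larger TSS signal (89.8 to 135 RPM against 28.2 to 39.7 RPM for *Farsa*) and the smaller gene body signal of the pair in 5 of 6 libraries, the exception being Ctrl replicate 3. The lower end of the class held *Wars* (tryptophanyl, 16.3 to 23.9 TPM), *Hars* (histidyl, 15.7 to 18.3 TPM) and *Qars* (glutaminyl, 11.1 to 15.3 TPM), and the shared gene *Kars* (lysyl) had 21.4 to 26.2 TPM. *Tarsl2*, a second cytosolic threonyl-tRNA synthetase gene, was the lowest of all 37, with 3.51, 4.02 and 1.93 TPM in Ctrl against 2.86, 3.88 and 4.30 TPM for *Kmt5b* sKO. It overlaps *Tm2d3* on the same strand over 922 nt, as *Aars* overlaps *Exosc6* over 1325 nt, so some reads there cannot be assigned to either gene alone.

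Among the mitochondrial genes *Lars2* was exceptional and is described apart. The other 15 ran from *Yars2* (21.6 to 38.4 TPM), *Tars2* (23.2 to 26.7 TPM), *Sars2* (16.0 to 26.0 TPM) and *Ears2* (17.1 to 22.2 TPM) through *Mars2* (15.1 to 29.6 TPM), *Iars2* (13.8 to 20.4 TPM), *Rars2* (14.5 to 18.5 TPM) and *Nars2* (12.0 to 18.6 TPM). Lower values were found for *Pars2* (6.66 to 20.4 TPM), *Hars2* (7.12 to 12.9 TPM), *Aars2* (6.81 to 12.2 TPM) and *Vars2* (7.33 to 10.4 TPM). *Cars2* (6.45 to 9.02 TPM), *Fars2* (6.30 to 8.54 TPM) and *Wars2* (5.11 to 6.79 TPM) closed the class. Neighbours in this order overlapped in range.

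**Figure D1:**
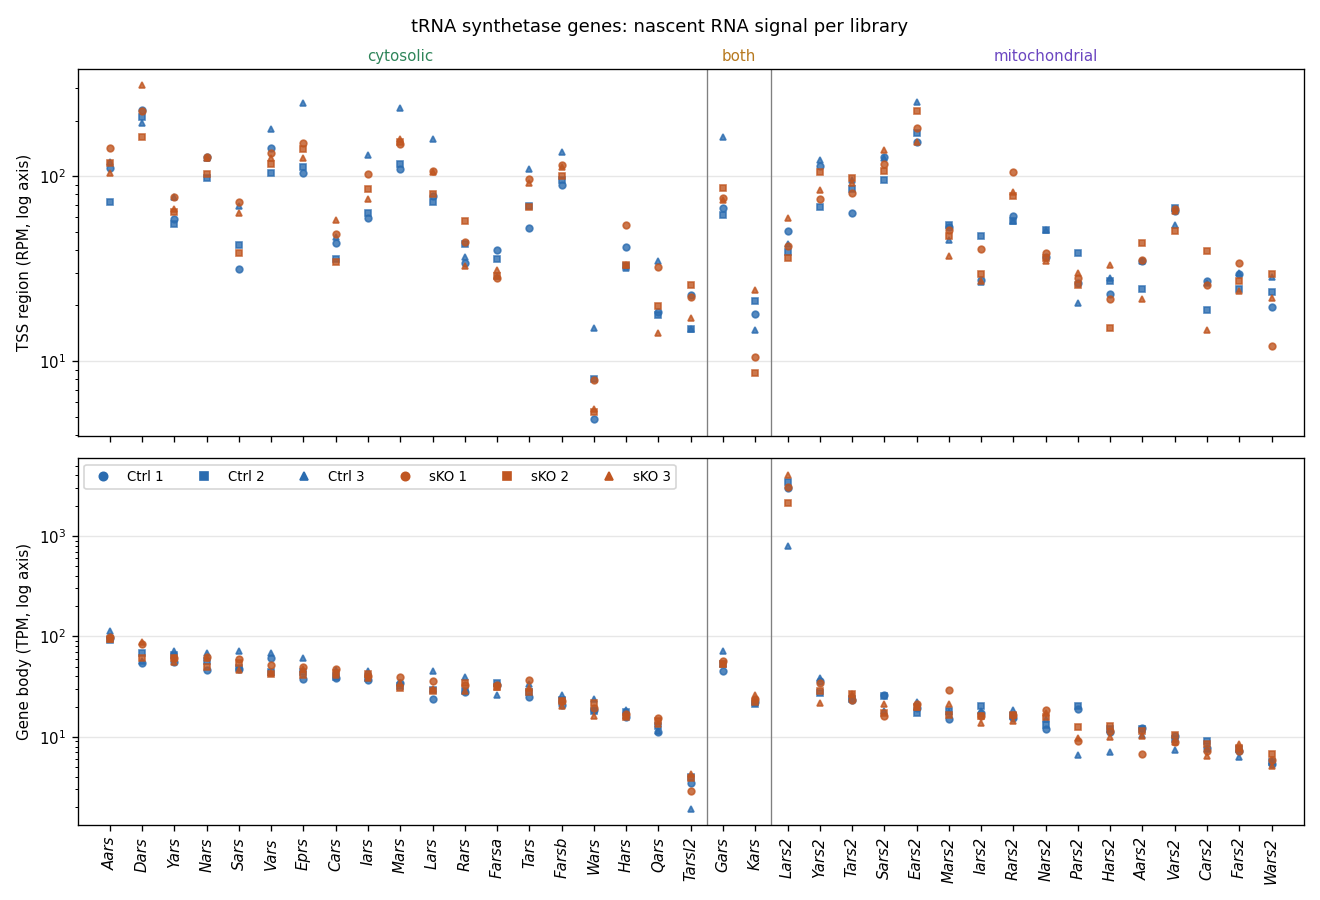
Nascent RNA signal of 37 synthetase genes in each library, for the TSS region in RPM (top) and the gene body in TPM (bottom), both on log axes; circles, squares and triangles are replicates 1 to 3 of Ctrl (blue) and *Kmt5b* sKO (orange), and genes are ordered by mean gene body signal within each class. *Lars2* lies far above the other 36 genes in the gene body but not in the TSS region, and Ctrl replicate 3 is the top point for many cytosolic genes.

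The same order held within amino acids. For 13 amino acids a cytosolic and a mitochondrial gene were compared, and in 12 of these pairs the cytosolic gene had the higher gene body signal in all 6 libraries. The exception was *Lars* and *Lars2*, where the mitochondrial gene was higher in all 6. The median ratio of means was 2.36, and the widest ratios were those of *Aars* over *Aars2* (9.39, from 7.78 to 14.5 across libraries) and *Vars* over *Vars2* (5.63, from 4.02 to 9.38). The narrowest was *Tars* over *Tars2*, at 1.22 (1.04 to 1.60).

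At the TSS region the classes were less separate. The median cytosolic gene had 58.8, 63.2 and 110 RPM in Ctrl against 96.4, 68.0 and 75.4 RPM for *Kmt5b* sKO, and the median mitochondrial gene had 43.8, 49.4 and 44.1 RPM in Ctrl against 41.3, 41.6 and 36.1 RPM for *Kmt5b* sKO. The cytosolic gene was higher in all 6 libraries in 6 of the 13 pairs, the mitochondrial gene in 3 (*Rars2*, *Sars2* and *Wars2*), and 4 pairs were mixed. The strongest TSS signals of all 37 came from *Dars* (163 to 311 RPM), *Ears2* (153 to 253 RPM), *Mars* (110 to 235 RPM) and *Eprs* (105 to 248 RPM). *Wars* had the weakest, with 4.84 to 15.2 RPM, and 22.8% of all genes tested lay below its mean.

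The pausing index divides the TSS signal by the signal over the body and is high where polymerases are found mainly near the start. Since RPM and TPM are different scales, only its order between genes and libraries can be read. The median mitochondrial gene had an index of 3.33, 3.15 and 3.45 in Ctrl against 3.30, 3.67 and 3.22 for *Kmt5b* sKO, above the cytosolic median of 2.13, 1.73 and 2.64 in Ctrl against 2.58, 2.07 and 2.04 for *Kmt5b* sKO in every library. The median of all genes tested lay between 1.41 and 1.53. The mitochondrial gene had the higher index in all 6 libraries in 8 of 13 pairs, the cytosolic gene in 1 (*Lars* over *Lars2*), and 4 pairs were mixed. *Ears2*, the mitochondrial glutamyl-tRNA synthetase gene, had the highest index of the 37 (7.72 to 11.4), and 98.5% of the 11698 genes with an index lay below it. *Vars2* (4.88 to 7.47), *Tarsl2* (3.72 to 7.79) and *Sars2* (3.76 to 7.25) came next with overlapping ranges. *Lars2* had the lowest (0.0112 to 0.0538), followed by *Wars* (0.244 to 0.635) and *Kars* (0.388 to 0.993).

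**Figure D2:**
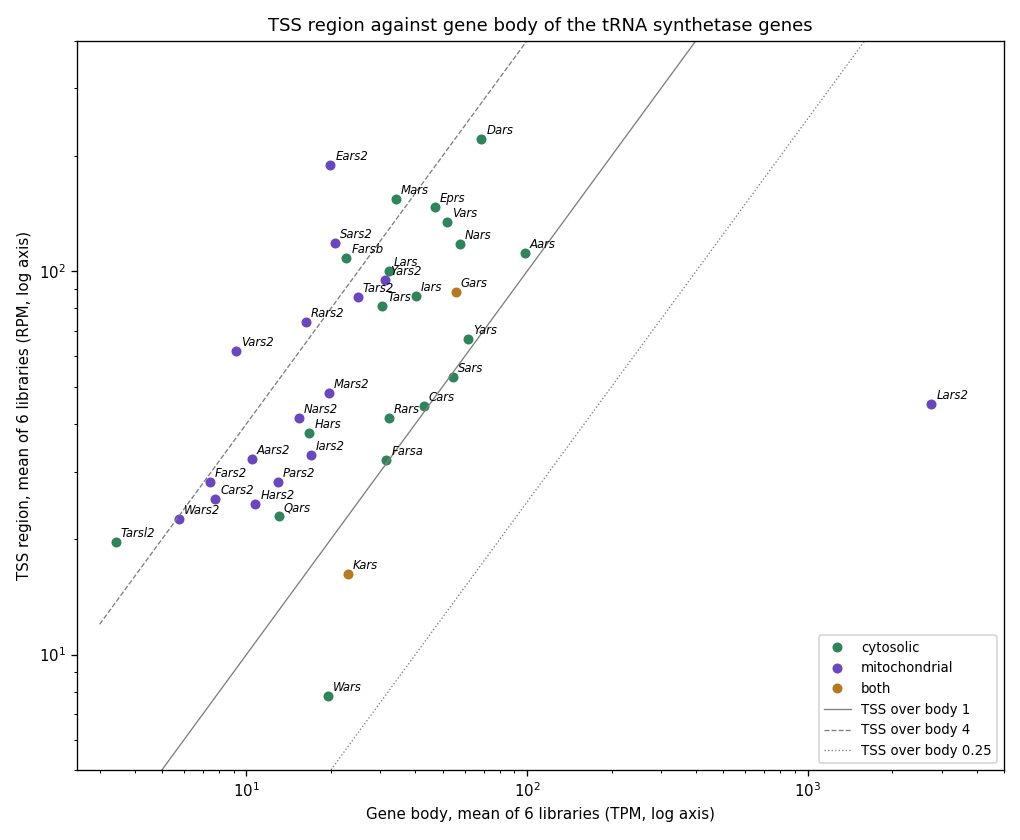
Mean TSS signal (RPM) against mean gene body signal (TPM) over 6 libraries for each synthetase gene, on log axes, coloured by compartment; grey lines mark TSS over body ratios of 4, 1 and 0.25. Mitochondrial genes lie mostly to the left of the cytosolic genes at a like TSS signal, and *Lars2* lies alone at the far right.

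The promoters of both classes were searched for short letter strings, whose counts are given as a description with no test. Promoter windows of RefSeq (GRCm38.p6, 250 bases before to 50 after the annotated start) were found for 28 of the 37 genes, 12 cytosolic, 14 mitochondrial and 2 shared. A core of the C/EBP-ATF response element bound by ATF4, TGATGCA on either strand, was present in 5 of 12 cytosolic windows and in 0 of 14 mitochondrial windows, against 3.63% of the 27025 genes of the table. These 5 stretches are shown because cytosolic synthetases are known ATF4 targets, with the core (or its reverse complement TGCATCA) in capitals, 5′ to 3′ on the strand of the gene.
*Aars*, chr8:111033681-111033787, + strand: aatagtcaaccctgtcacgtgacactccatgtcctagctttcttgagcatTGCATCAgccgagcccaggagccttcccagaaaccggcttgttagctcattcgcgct
*Iars*, chr13:49682088-49682149, + strand: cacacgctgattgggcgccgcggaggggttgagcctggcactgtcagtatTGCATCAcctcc
*Tars*, chr15:11399639-11399722, - strand: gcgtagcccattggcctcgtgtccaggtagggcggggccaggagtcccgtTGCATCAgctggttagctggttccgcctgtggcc
*Tarsl2*, chr7:65644785-65644891, + strand: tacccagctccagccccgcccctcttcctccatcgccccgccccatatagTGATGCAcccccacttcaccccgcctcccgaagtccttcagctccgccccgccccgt
*Yars*, chr4:129189856-129189922, + strand: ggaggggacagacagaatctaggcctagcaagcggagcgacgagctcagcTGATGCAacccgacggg
The core begins 111 bases before the RefSeq start in *Aars*, 63 before in *Tarsl2* and 14 before in *Tars*, and it lies just after the start in *Iars* and *Yars*. TSS values are counted from the start of the listed transcript, which is not the RefSeq start in every gene. In *Yars* the listed start is base 129189760 and the RefSeq start base 129189903, so the core lies inside the counted TSS region. The listed start of *Aars* lies 60 bases after the RefSeq start.

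Mitochondrial windows were the ones that held a core of the NRF1 element, GCATGCG on either strand. NRF1 is a transcription factor known for nuclear genes of mitochondrial function. Its core was present in 5 of 14 mitochondrial windows and in 0 of 12 cytosolic windows, against 4.01% of all genes. The 5 stretches are shown for comparison, with the core or its reverse complement CGCATGC in capitals; where both overlap, as in *Vars2* and *Wars2*, the capitals run over both.
*Nars2*, chr7:96951432-96951538, + strand: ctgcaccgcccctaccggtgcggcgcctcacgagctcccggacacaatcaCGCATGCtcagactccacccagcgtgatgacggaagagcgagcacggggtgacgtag
*Rars2*, chr4:34614856-34614962, + strand: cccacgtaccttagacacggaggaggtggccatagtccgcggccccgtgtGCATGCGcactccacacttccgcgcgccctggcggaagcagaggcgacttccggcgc
*Vars2*, chr17:35667573-35667689, - strand: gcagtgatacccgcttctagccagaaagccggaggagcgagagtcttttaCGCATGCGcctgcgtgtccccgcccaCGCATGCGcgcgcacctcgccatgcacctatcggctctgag
*Wars2*, chr3:99140977-99141084, + strand: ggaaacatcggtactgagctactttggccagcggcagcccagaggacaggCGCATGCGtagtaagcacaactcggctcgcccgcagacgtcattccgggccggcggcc
*Yars2*, chr16:16302858-16302964, + strand: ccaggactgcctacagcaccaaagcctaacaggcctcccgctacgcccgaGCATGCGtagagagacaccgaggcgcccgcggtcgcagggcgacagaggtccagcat
The first core begins 45 to 63 bases before the start in these 5 genes, and *Vars2* holds a second one closer to it. The ETS string TTCCGG was present in 3 of 12 cytosolic, 7 of 14 mitochondrial and both shared windows (16.7% of all genes), and the E-box CACGTG in 4 of 12 cytosolic and 1 of 14 mitochondrial windows (8.09%). A match says only that these letters are present, and no binding was measured.

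None of the 37 genes passed the threshold between the genotypes. With limma and a Benjamini-Hochberg adjusted p under 0.1 over all genes tested, 0 of 37 were called in the TSS region, where 1.66% of the 12451 genes were called, and 0 of 37 in the gene body, where 2.99% were called. On the reads recovered from the gene body values, edgeR and DESeq2 called 0 of the 37 as well, beside 6.01% and 10.4% of all genes. The pausing index gave 0 calls among the 37 and 0% of the 11698 genes with an index. At an unadjusted p under 0.05, 1 of 37 passed at the TSS (11% of all genes), 1 over the body (15.9%) and 2 for the index (3.86%). Fold changes were above 0 for 20 genes and below 0 for 17 in either region. For TSS and body in turn, the 37 genes had median log2 fold changes (*Kmt5b* sKO over Ctrl) of 0.03 and 0.00, beside 0.08 and 0.02 for all genes tested. For the cytosolic class it was 0.10 and 0.00, and for the mitochondrial class -0.02 and 0.06.

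The precision was enough to bound most members relative to the other genes. Values are scaled to each library's own total, so a change shared by most genes would not appear in these fold changes. In the gene body the 95% confidence interval of 35 of the 37 genes lay within -1 and 1 on the log2 scale, with a median half-width of 0.39. In the TSS region this held for 34 of 37, with a median half-width of 0.53. With 3 libraries per group, a difference smaller than the half-width of a gene's own interval could not be told from 0. For *Aars* the gene body log2 fold change was -0.08 ± 0.13 (SE, n = 3 per group; limma adjusted p = 0.833), with an interval from -0.38 to 0.22.

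**Figure D3:**
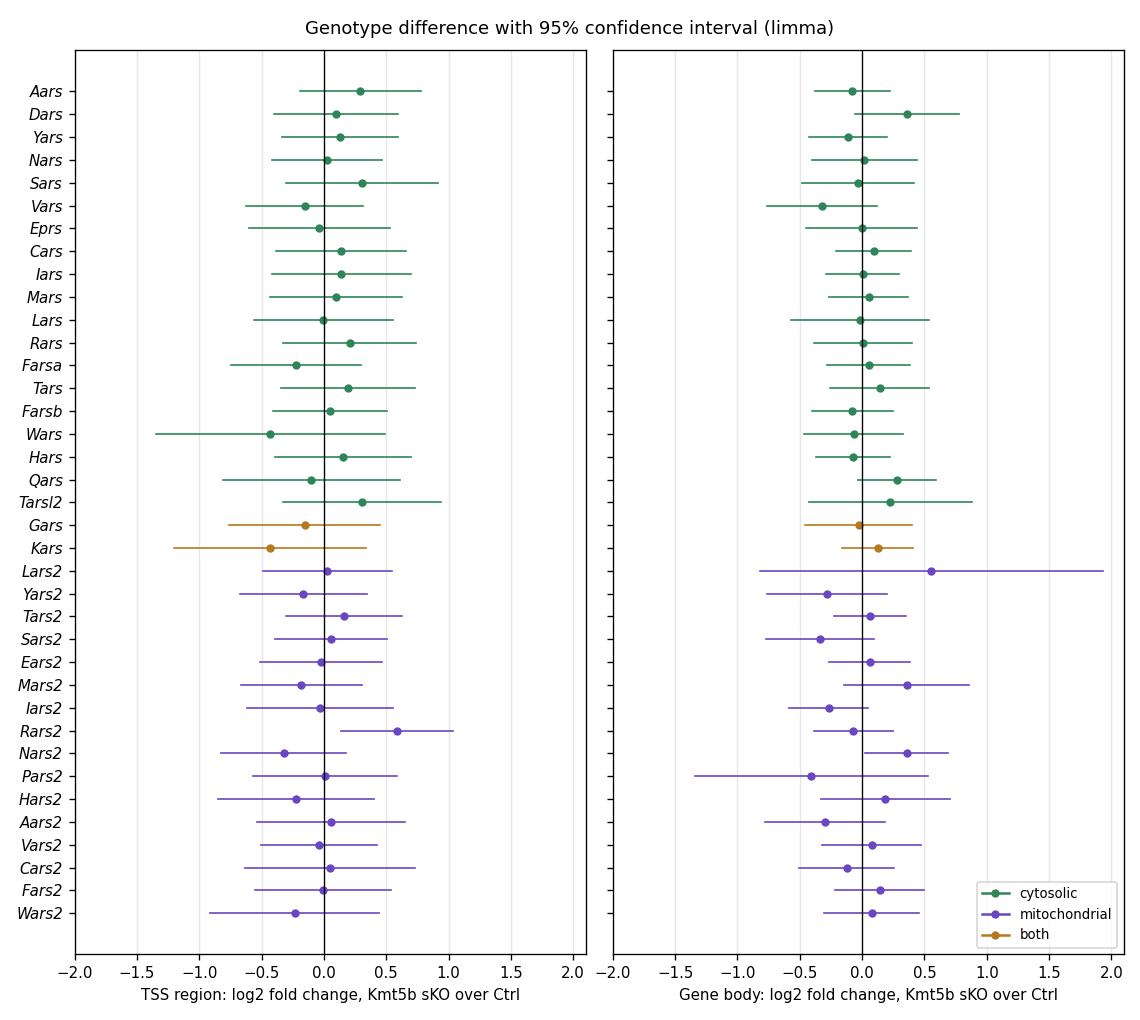
Log2 fold change (*Kmt5b* sKO over Ctrl) of each synthetase gene in the TSS region (left) and gene body (right), on the log2(value + 0.5) scale; points are limma estimates from 3 libraries per group and lines are 95% confidence intervals. Most intervals cross 0, *Rars2* lies highest in the TSS panel, and *Lars2* has the widest interval in the gene body.

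*Rars2*, the mitochondrial arginyl-tRNA synthetase gene (GRCm38, chr4:34614957-34660167, plus strand, 20 exons), had the largest difference upwards in the TSS region. Its TSS signal was 60.8, 57.5 and 57.6 RPM in Ctrl against 105, 78.6 and 82.8 RPM for *Kmt5b* sKO, and the groups did not overlap. The log2 fold change was 0.59 ± 0.21 (SE, n = 3 per group; limma adjusted p = 0.256). Its gene body values, 15.6, 16.1 and 18.5 TPM in Ctrl against 16.6, 16.6 and 14.5 TPM for *Kmt5b* sKO, overlapped (log2 fold change -0.07 ± 0.14). *Rars2* starts 13 nt from the divergent gene *Orc3*, a subunit of the origin recognition complex, whose TSS signal was 78.9, 98.8 and 72.4 RPM in Ctrl against 122, 92.5 and 119 RPM for *Kmt5b* sKO, with overlapping groups (log2 fold change 0.41, limma adjusted p = 0.528).

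*Nars2*, the mitochondrial asparaginyl-tRNA synthetase gene, went opposite ways in its 2 regions. Its gene body had 12.0, 13.2 and 15.0 TPM in Ctrl against 18.6, 15.8 and 17.3 TPM for *Kmt5b* sKO, without overlap, and its TSS region had 36.8, 51.1 and 51.1 RPM in Ctrl against 38.4, 36.3 and 35.0 RPM for *Kmt5b* sKO, with overlap. The log2 fold changes were 0.36 ± 0.14 in the gene body (SE, n = 3 per group; limma adjusted p = 0.289) and -0.32 ± 0.24 in the TSS region (adjusted p = 0.704). The pausing index of *Nars2* had the lowest log2 fold change of the 37, -0.70, and that of *Rars2* the highest, 0.66 (limma adjusted p = 0.9997 for both). The groups did not overlap for the index of *Nars2*, *Rars2* and *Farsa*, 3 of 37 against 9.02% of all genes. Without overlap in the gene body were *Iars2* (lower in *Kmt5b* sKO) and *Nars2* and *Qars* (higher), 3 of 37 against 21.4% of all genes, and in the TSS region *Rars2*, 1 of 37 against 15.6%. *Iars2*, the mitochondrial isoleucyl-tRNA synthetase gene, had 17.4, 20.4 and 18.1 TPM in Ctrl against 16.3, 16.0 and 13.8 TPM for *Kmt5b* sKO (gene body log2 fold change -0.27 ± 0.14, SE, n = 3 per group; limma adjusted p = 0.404).

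After *Lars2*, the larger gene body differences upwards were those of *Dars* and *Nars2*. *Dars* had 54.4, 68.8 and 56.4 TPM in Ctrl against 83.5, 61.1 and 88.2 TPM for *Kmt5b* sKO, with overlapping groups (log2 fold change 0.36 ± 0.18, SE, n = 3 per group; limma adjusted p = 0.394). *Mars2*, a gene of a single exon, followed at 0.36 ± 0.22 with 29.6 TPM in *Kmt5b* sKO replicate 1 against 15.1 to 21.1 TPM in the other libraries, and at 0.14 without that library. The larger differences downwards were those of *Pars2* and *Sars2*, the mitochondrial prolyl and seryl enzymes, and of the cytosolic *Vars*. *Pars2* had 19.2, 20.4 and 6.66 TPM in Ctrl against 9.04, 12.5 and 9.70 TPM for *Kmt5b* sKO, so Ctrl replicate 3 was the lowest library of the gene and the other Ctrl libraries the highest. Its log2 fold change was -0.41 ± 0.40 (SE, n = 3 per group; limma adjusted p = 0.706), and without Ctrl replicate 3 it was -0.91 (adjusted p = 0.0526), where 6.71% of all genes were called. *Sars2* had 26.0, 25.5 and 18.3 TPM in Ctrl against 16.0, 17.3 and 21.3 TPM for *Kmt5b* sKO (log2 fold change -0.34 ± 0.19, SE, n = 3 per group; limma adjusted p = 0.448). *Sars2* lies head to head with *Mrps12*, a mitochondrial ribosomal protein gene. *Vars* had 60.6, 44.3 and 68.8 TPM in Ctrl against 51.9, 41.9 and 43.1 TPM for *Kmt5b* sKO, with overlapping groups (log2 fold change -0.32 ± 0.19, and -0.19 without Ctrl replicate 3). The lowest gene of all, *Tarsl2*, had a log2 fold change of 0.23 ± 0.28 (adjusted p = 0.769), and -0.04 without Ctrl replicate 3.

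The 8 genes of the multisynthetase complex, *Dars*, *Eprs*, *Iars*, *Kars*, *Lars*, *Mars*, *Qars* and *Rars*, gave 0 calls in each test. Their median log2 fold changes were 0.05 (TSS) and 0.03 (body). Without Ctrl replicate 3 they were 0.28 and 0.17, where the medians of all genes were 0.04 and -0.01 and again 0 were called. Ctrl replicate 3 was the highest library for 5 of the 8 at the TSS and for 4 over the body. Leaving it out therefore raises these medians by construction. *Qars* was the member whose gene body groups did not overlap, with 11.1, 12.8 and 11.3 TPM in Ctrl against 15.3, 14.3 and 13.4 TPM for *Kmt5b* sKO (log2 fold change 0.28 ± 0.13, SE, n = 3 per group; limma adjusted p = 0.375).

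Among the cytosolic genes, Ctrl replicate 3 stood out. In the TSS region 10 of the 19 cytosolic genes (52.6%) had their highest value in Ctrl replicate 3, beside 13.6% of all genes tested and 3 of the 16 mitochondrial genes. In the gene body it was 12 of 19 (63.2%), beside 14.9% of all genes and again 3 of 16. *Eprs* had 105, 112 and 248 RPM in the TSS region of the Ctrl libraries and 151, 141 and 126 RPM in *Kmt5b* sKO. *Lars* had 78.2, 73.0 and 159 RPM in Ctrl against 107, 79.9 and 105 RPM for *Kmt5b* sKO. Of the shared genes, *Gars* had 67.5, 61.5 and 163 RPM in Ctrl against 76.4, 86.5 and 74.5 RPM for *Kmt5b* sKO. In these 3 genes Ctrl replicate 3 was above all other libraries, at 1.95, 1.79 and 2.23 times their mean, while the other Ctrl libraries were the lowest.

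The same library was high for other genes of the amino acid response. Of 16 ATF4 targets that serve amino acid synthesis and transport, 15 were highest there at the TSS and 14 over the body, with a median of 2.18 and 1.59 times the other libraries. *Trib3*, an ATF4-induced pseudokinase gene, had 10.8, 15.0 and 82.9 TPM in Ctrl against 29.8, 26.1 and 13.5 TPM for *Kmt5b* sKO. *Asns*, the asparagine synthetase gene, had 18.5, 25.3 and 45.2 TPM in Ctrl against 36.5, 26.2 and 23.8 TPM for *Kmt5b* sKO. In this library the 5 cytosolic genes with the C/EBP-ATF core printed above varied in TSS signal. It was 1.69 (*Iars*), 1.45 (*Tars*), 1.21 (*Yars*), 1.09 (*Aars*) and 0.73 (*Tarsl2*) times the mean of the other libraries. Genes whose window lacked the core varied too, with *Gars* at 2.23 and *Dars* at 0.86. The core is a single short string, present in 3 of the 13 ATF4 targets of amino acid supply with a window. Its absence therefore does not mark a gene as no ATF4 target, and the part of ATF4 in this library was not tested. Ctrl replicate 3 held 14241252 gene body reads, within the range of the other libraries, and the most TSS reads, 3246052. The part of depth in this pattern was not tested.

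Ctrl replicate 3 was picked because many cytosolic genes were highest in it. Leaving it out therefore raises their fold changes by construction, and the shift is only a description. Without Ctrl replicate 3, 17 of 19 cytosolic genes had a TSS log2 fold change above 0, against 13 of 19 with it. Their median was 0.22 instead of 0.10 (0.04 for all genes without that library). In the gene body the count went from 10 to 14 of 19 and the median from 0.00 to 0.09 (-0.01 for all genes without that library). None of the 19 was called with or without it. For the mitochondrial genes the TSS median was 0.00 and the gene body median -0.05 without it. *Pars2* was the only call, over the gene body, where 6.71% of all genes were called.

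**Figure D4:**
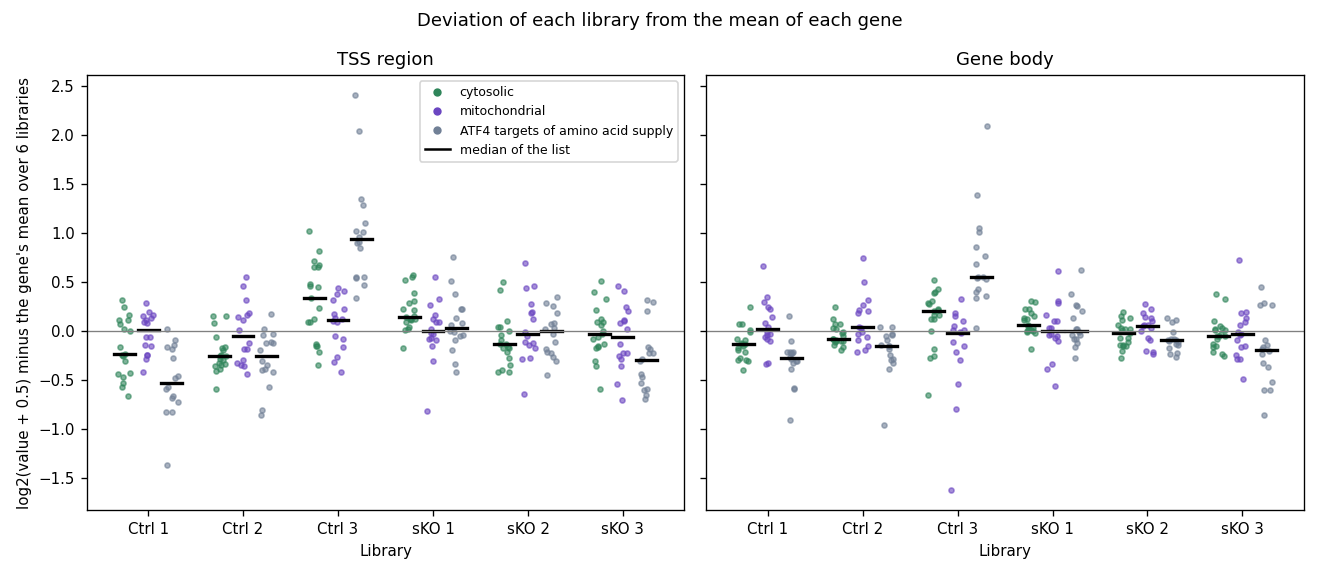
Log2(value + 0.5) of each gene in each library minus the mean of that gene over 6 libraries, for the TSS region (left) and gene body (right); points are genes (19 cytosolic, 16 mitochondrial, 16 ATF4 targets of amino acid supply) and black lines are medians. In Ctrl replicate 3 the cytosolic median is 0.34 at the TSS and 0.21 over the body, the ATF4 target median is 0.94 and 0.55, and the mitochondrial median is 0.11 and -0.02.

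*Lars2*, the mitochondrial leucyl-tRNA synthetase gene (chr9:123366927-123462664, plus strand, 21 exons), held an unusual share of the reads. Its gene body had 3029, 3474 and 799 TPM in Ctrl against 3048, 2147 and 4071 TPM for *Kmt5b* sKO. This was 2.60%, 2.78% and 0.76% of all listed gene body reads in Ctrl and 2.52%, 1.81% and 3.21% in *Kmt5b* sKO. It ranked 1st of the 14546 genes by reads in 5 of 6 libraries and 3rd in Ctrl replicate 3. *Lars2* alone made up 67.5% to 92.4% of the gene body reads of the 37 synthetase genes, while the other 36 together held 0.263% to 0.369% of the listed reads.

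The TSS region of *Lars2* did not share this. It had 50.8, 39.1 and 43.0 RPM in Ctrl against 42.0, 36.3 and 59.3 RPM for *Kmt5b* sKO, within the range of the other mitochondrial genes, from 55 to 227 reads. Its pausing index was therefore the 8th lowest of 11698 genes. Exons cover 3.89% of its 95337-nt gene body, and the deposited table sums reads over the body, so where in it they lie is not known here. Reads that matched several places were kept at 1 random position by the authors, and the part of such reads in the *Lars2* values was not tested.

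The groups overlapped for *Lars2* in both regions. The log2 fold change was 0.55 ± 0.59 in the gene body (SE, n = 3 per group; limma adjusted p = 0.732), with an interval from -0.82 to 1.93, and 0.03 ± 0.25 in the TSS region (adjusted p = 0.983). Without Ctrl replicate 3 the gene body value was -0.12 (adjusted p = 0.892). The spread of *Lars2* between libraries was shared with other genes that hold many reads: of the 6 genes with the largest mean share, *Lars2*, *Cdk8*, *Cmss1*, *Ttn*, *Gphn* and *Peak1*, all were lowest in Ctrl replicate 3. Of the 12451 genes tested, 4152 were lowest in that library over the gene body. Ctrl replicate 1 exceeded Ctrl replicate 3 by 3.79 times in *Lars2*, 4.34 in *Cdk8*, 4.49 in *Cmss1*, 3.83 in *Gphn* and 4.28 in *Peak1*, against 1.24 in the titin gene *Ttn*. These genes were picked by their reads, so their likeness is a description. *Fars2*, the longest synthetase gene body at 419251 nt, differed by 1.15 times between the same libraries.

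**Figure D5:**
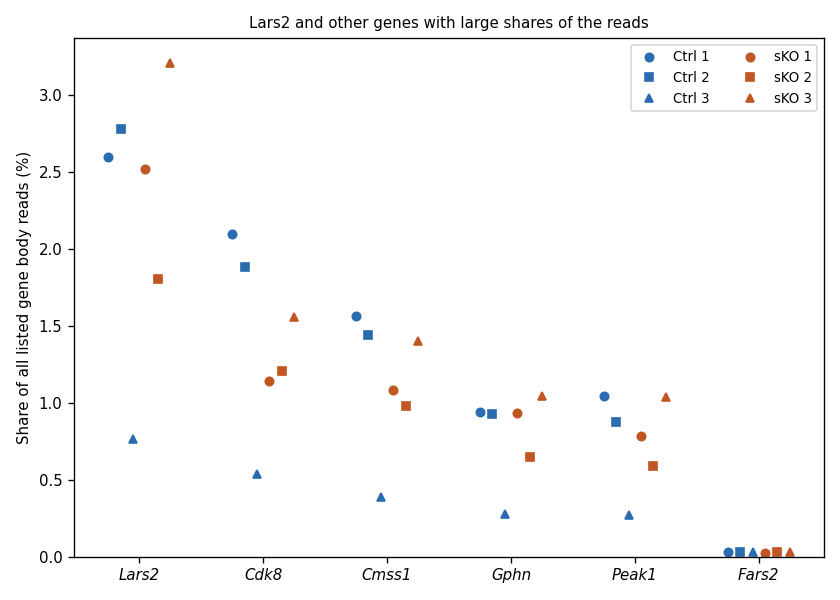
Share of all listed gene body reads (%) in each library for *Lars2*, for *Cdk8*, *Cmss1*, *Gphn* and *Peak1*, and for the long synthetase gene *Fars2*; circles, squares and triangles are replicates 1 to 3 of Ctrl (blue) and *Kmt5b* sKO (orange). Ctrl replicate 3 (blue triangle) is the lowest point of the first 5 genes.

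The partners of the synthetases were followed with lists of genes from the same pathway. Of 15 charging partners, such as the scaffold genes *Aimp1* and *Aimp2* of the multisynthetase complex and the tRNA exporter *Xpot*, 15 were tested and 0 were called in any of the 3 tests, which called 1.66% (TSS), 2.99% (body) and 0% (index) of all genes. The widest gene body differences in this list were 0.64 ± 0.39 for *Prorsd1* (limma adjusted p = 0.512) and -0.20 ± 0.18 for *Gatc* (adjusted p = 0.668). Of 8 cytosolic elongation factors 7 were tested and 0 called, with -0.25 ± 0.18 for *Eef1a1*, which brings charged tRNA to the ribosome, and 0.21 ± 0.21 for *Eef2*. Of 10 mitochondrial translation factors 10 were tested and 0 called, and *Mtrf1l*, a mitochondrial release factor gene, had the widest gene body difference at -0.33 ± 0.12 (adjusted p = 0.259). Their median TSS log2 fold change was 0.28, beside 0.08 for all genes.

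The ATF4 lists gave no calls by genotype either. Of the 16 supply genes 0 were called in any test, with median log2 fold changes of -0.15 (TSS) and -0.08 (body), and *Shmt2*, a mitochondrial serine hydroxymethyltransferase gene, had the widest gene body difference at -0.58 ± 0.30 (limma adjusted p = 0.428), which was -0.20 without Ctrl replicate 3. At the TSS the widest was that of *Slc3a2*, an amino acid transporter subunit gene, at -0.60 ± 0.25 (adjusted p = 0.365), which was -0.30 without that library. Of the 11 stress regulators 0 were called, with *Sesn2* at 0.38 ± 0.30 (adjusted p = 0.613) and *Cebpb* at -0.44 ± 0.25 (adjusted p = 0.458) in the gene body, the latter at -0.18 without Ctrl replicate 3. Without Ctrl replicate 3 the supply genes had medians of 0.32 and 0.20, so the sign of these medians rests on that library. The stress regulators had medians of 0.05 (TSS) and -0.07 (body) with all libraries, and 0.38 and 0.24 without Ctrl replicate 3. In that run *Sesn2* was called in the gene body (log2 fold change above 0), 1 of 11 where 6.71% of all genes were called. Most genes of both lists were highest in Ctrl replicate 3, so leaving it out raises these medians by construction. *Atf4* itself had 2494, 1310 and 2588 TPM in Ctrl against 1866, 1744 and 1765 TPM for *Kmt5b* sKO.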

How the data were processed

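PRO-seq libraries of 3 Ctrl and 3 *Kmt5b* sKO samples were analysed. According to their methods and processing notes, the authors used Trimmomatic 0.39 for trimming, STAR 2.6.1d for alignment to GRCm38 and Picard 2.18.16 against duplicates. They kept 1 random position for reads matching several and counted sense reads per isoform of protein-coding genes, listing the isoform with the highest TSS signal. The values that the authors deposited are RPM for the TSS region (headed TPM, the unit that the tests had been planned for) and TPM for the gene body. No column was left unused.

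Genes on X and Y or with a mean under 0.5 in either region were left out. Log2(value + 0.5) was tested with limma 3.58.1 (eBayes with a trend; R 4.3.3) by genotype alone, and so was the log2 pausing index without a pseudocount. Fold changes on this scale understate those of low genes. Whole reads were recovered from the steps between deposited values (99.96% to 100% of TSS values and 100% of the gene body values of short, low genes within 0.1 read) for edgeR 4.0.16 and DESeq2 1.42.0. The limma test of both regions was tried on simulated reads, with the same spread for all genes and no deviant library. That trial does not show how the test behaves with a library such as Ctrl replicate 3. Same-numbered libraries did not deviate together (r from -0.33 to -0.03). Neighbours and exons were read from GENCODE vM21 (GRCm38), and coordinates are those the authors list. The members, lists and alternatives were chosen with earlier results of these data known. Of the 38 genes found, 37 are named; 1 stayed in every fit over all genes but is not reported here. Values per library are given for the 3 largest gene body differences each way, *Lars2* and the highest and lowest genes by rule. Others were chosen after their values were seen. Tables and plots were made in Python 3.11.15 (pandas 2.3.3, numpy 2.4.6, matplotlib 3.10.9).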

Additional observations from a re-analysis of the deposited data

How the results depend on the processing

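None of the 37 genes was called in the TSS region or for the pausing index under any alternative run: pseudocounts of 0.1 and 1, other filters on low values, X and Y kept, eBayes without a trend, an adjusted p under 0.05, other scalings, edgeR and DESeq2 (these and the pseudocounts were not run for the index), and each library left out. In the gene body 0 of the 37 were called under these alternatives, edgeR and DESeq2 included, except that 0 to 1 were called when a library was left out (*Pars2* without Ctrl replicate 3). With the replicate block, a paired fit on the numbers of the labels, 0 were called in each test. Over the alternatives the gene body log2 fold change of *Pars2* ran from -0.91 to -0.13 (adjusted p = 0.0526 to 0.926).

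The median gene body log2 fold change of the 37 genes was 0.0651 after rescaling to the total without *Lars2*, a setting that rescales every library to its listed total, and -0.0792 to 0.0657 when a library was left out, against 0.0041. Signs of single genes near 0 were not stable: leaving out 1 library turned 3 to 13 of 37 in the gene body (most without Ctrl replicate 3) and 4 to 11 of 37 in the TSS region (most without *Kmt5b* sKO replicate 3), with none of them called. With 3 libraries per group and down to 8 TSS reads behind a value, small differences in weakly transcribed members cannot be resolved.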
